A study of Mus musculus with 192 samples.

Results

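The miRNAs of the miR-297, miR-466, miR-467 and miR-669 families were described in the cortex, heart and lungs of mice given fentanyl. Members were taken by name alone, as every table entry that begins with 1 of these 4 family names, which gave 71 of 1960 miRNAs listed. Adult male SKH-1 Elite mice, an outbred, hairless and immunocompetent strain, received fentanyl citrate under the skin at 62 mg/kg (HNLD, the highest non-lethal dose), 110 mg/kg (LD10) or 135 mg/kg (LD50), and sham mice received the Ringer's vehicle. Tissues were taken at 0h, which is 40 min after dosing, and at 6h, 24h and 7d. Each of the 16 groups of dose and time held 4 of the 64 mice, and each mouse gave small RNA libraries of all 3 tissues. The tables held 190 libraries of 192 samples, with 3 libraries in the cortex sham 24h group and 3 in the lungs LD50 7d group. The values in the tables are reads divided by a library factor (TMM scaling), and are called scaled reads below. Whole reads were recovered from them, and levels between tissues are compared as RPM, reads scaled to a common library total.

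These families are a large rodent group of miRNAs. Most of their hairpins lie in an intron of Sfmbt2, a Polycomb group gene that in mice is expressed from the paternal copy in the placenta and other tissues outside the embryo. A hairpin is cut into a 5p and a 3p strand, and the strand that is kept guides silencing of mRNAs that pair with its seed, bases 2 to 8. The hairpins repeat each other closely, and how a read that matched several members was counted is not given in the sources used here, so levels of near-identical members are uncertain.

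The GENCODE annotation of the mouse build NCBIM37 (mm9) held 79 hairpins of the 4 families. Of these, 68 lay inside Sfmbt2 (chr2:10292137-10516880, plus strand), all on its own strand and all in 1 intron (chr2:10383100-10445571, 62472 bases). They ran from chr2:10388571 to chr2:10439906, a span of 51336 bases, with a median of 301 bases between neighbouring starts. The intron held 29 miR-669, 22 miR-466, 12 miR-467 and 5 miR-297 hairpins. The other 11 hairpins (4 of miR-466, 3 of miR-467, 3 of miR-297 and 1 of miR-669) were scattered over 8 chromosomes. Of the 71 members, 57 had hairpins inside the intron only, 4 had hairpins both inside and outside, 8 had hairpins outside only, and 2 (miR-466m-3p and miR-466q) were matched to no hairpin. The name rule is therefore wider than the Sfmbt2 intron. Members with hairpins only inside it held 96.1% of the members' reads in cortex, 82.7% in heart and 91.9% in lungs. Members with hairpins only outside it held 1.13%, 14.8% and 5.95%.

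**Figure D1:**
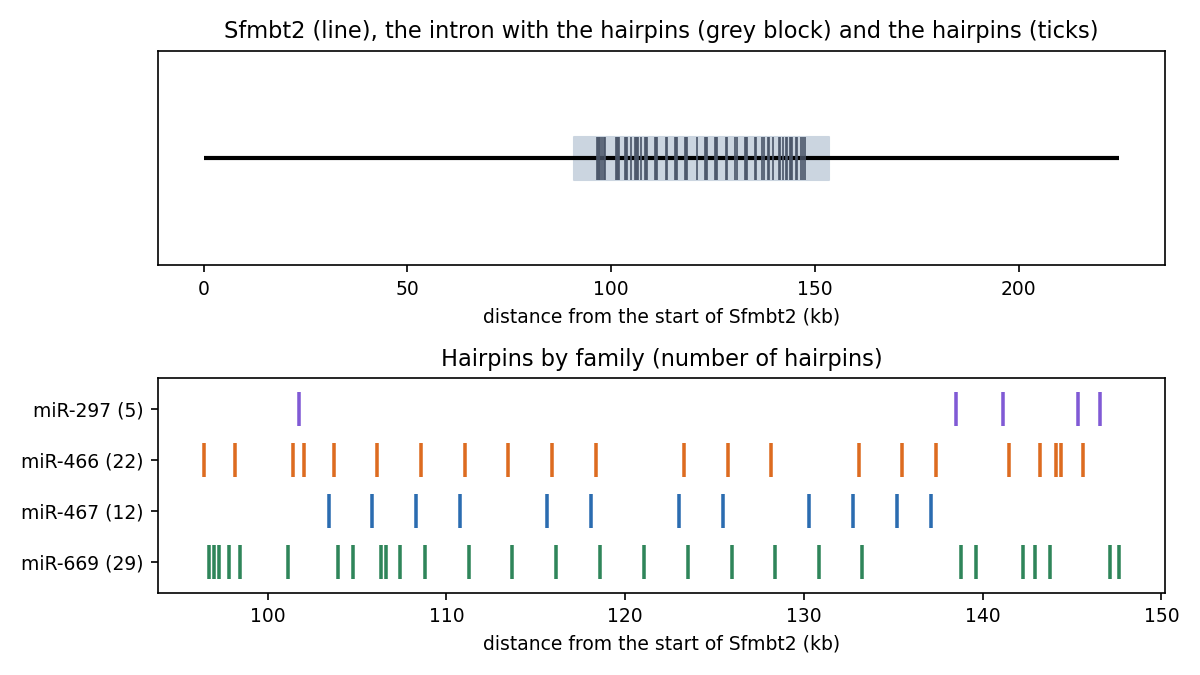
Positions of the 68 hairpins of the miR-297, miR-466, miR-467 and miR-669 families within Sfmbt2, by family, as distance from the gene's start in kilobases. All 68 lie in 1 intron, and the families alternate along the 51336 bases that the hairpins span rather than forming a block each.

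RefSeq (GRCm38.p6) gave a mature sequence for 8 of the 71 members. None of the 8 has a hairpin in the Sfmbt2 intron, and together they held 868 reads in all tissues, so the sequences show what the families look like and not the abundant members. They are printed 5′ to 3′ with the seed in capitals.
miR-466i-3p: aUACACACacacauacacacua
miR-466q: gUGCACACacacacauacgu
miR-467f: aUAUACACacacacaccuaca
miR-467g: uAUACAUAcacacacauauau
miR-466k: uGUGUGUGuacauguacauguga
miR-466j: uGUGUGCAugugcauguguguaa
miR-467h: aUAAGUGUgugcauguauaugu
miR-669n: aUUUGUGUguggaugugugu
The first 4 are rich in CA and UA steps and the last 4 in UG steps, and all 8 seeds differ. The sources of these members, in NCBIM37, were intronic or between genes: miR-466i lies in an intron of Cdk13 (chr13:17839307-17839427, plus strand), miR-466k in an intron of Arfip1 (chr3:85271299-85271420, plus strand), miR-467f in an intron of Fxr2 (chr11:69448902-69449021, minus strand), miR-467g in an intron of Grk4 (chr5:35075502-35075621, minus strand), and miR-669n in an intron of Slc30a7 (chr3:115682820-115682873, plus strand). Each of these 5 lies on the strand opposite to its host gene. The hairpins of miR-466j (chr10:60423471-60423592, plus strand) and miR-467h (chr9:115290937-115291057, plus strand) lie between genes. miR-466q was read 287 times in cortex, 42 in heart and 53 in lungs, and miR-466k 29, 6 and 27 times. miR-669n was not seen in any library.

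Depth set much of what could be measured. A cortex library held 1775669 to 8381425 recovered reads, a heart library 215163 to 5355085 and a lungs library 196853 to 6540900. Libraries under 0.25 of their tissue's median total numbered 0 in cortex, 5 in heart and 10 in lungs. Libraries that clustered apart from the rest of their tissue numbered 3, 2 and 10. The cortex ones were FP96 (sham 0h), FP85 (sham 6h) and FP24 (HNLD 7d). The sum of 4 neuronal miRNAs was 494.2 scaled reads in FP96 and 675 in FP85, against 105296 to 168749 in the 60 cortex libraries that did not stand apart, and was 52496.6 in FP24. FP96 and FP85 thus go against their cortex label. The heart ones were FP38 (HNLD 6h) and FP92 (sham 24h). In the heart library of FP38 the sum of 4 cardiac muscle miRNAs was 4206.56 scaled reads, against 53624.2 to 160212 in the 62 heart libraries that did not stand apart, and that of 8 lung epithelial miRNAs was 17105.2, against at most 983.65. In its lungs library the cardiac muscle sum was 158682 and the lung epithelial sum 1594.18, against 1997.2 to 13394.8 and 11751.7 to 20268.4 in the 53 lungs libraries that did not stand apart. Both libraries of FP38 thus go against their labels. In lungs the 10 libraries were all 4 of the sham 24h group (FP91 to FP94), FP95 and FP96 (sham 0h), FP30 (HNLD 0h), FP33 and FP38 (HNLD 6h) and FPB2 (LD10 6h). Dose also followed mouse number. In lungs, mice FP16 to FP58 held 16 HNLD, 15 LD10 and 2 LD50 libraries, FP59 to FP88 held 13 LD50 and 10 sham libraries, and FP91 to FP96 with FPB2 held 1 LD10 and 6 sham libraries. Fentanyl against sham and these mouse sets can only in part be told apart. At 24h they cannot be told apart in any of the 3 tissues, since every sham 24h library and no fentanyl 24h library comes from the set of FP91 to FP96 and FPB2. The main results that rest on libraries that stand apart are given with and without them.

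The members were widely present and low. At least 1 read was found in 1 or more libraries for 67 members in cortex, 61 in heart and 65 in lungs, and 3 members (miR-466l-5p, miR-669j and miR-669n) had no read in any tissue. In cortex 24 members were seen in every library, against 1 in heart and 3 in lungs, while 15, 35 and 21 members had at most 10 reads over the whole tissue. A cortex library held 32 to 52 members (median 45), a heart library 4 to 37 (median 23) and a lungs library 12 to 48 (median 36). With at least 10 reads required, the medians were 17, 1 and 9 members. Scaled down to the 196853 reads of the shallowest library, cortex libraries would show an expected 11.0 to 22.2 members (median 15.3), heart libraries 2.59 to 10.9 (median 5.34) and lungs libraries 6.21 to 16.4 (median 10.9). The order of the tissues was the same at equal depth, with some overlap between cortex and lungs and between lungs and heart. Once libraries that stand apart were left out, cortex ranged between 11.0 and 20.9, lungs between 8.22 and 13.7 and heart between 2.59 and 8.03, so that heart and lungs no longer overlapped.

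**Figure D2:**
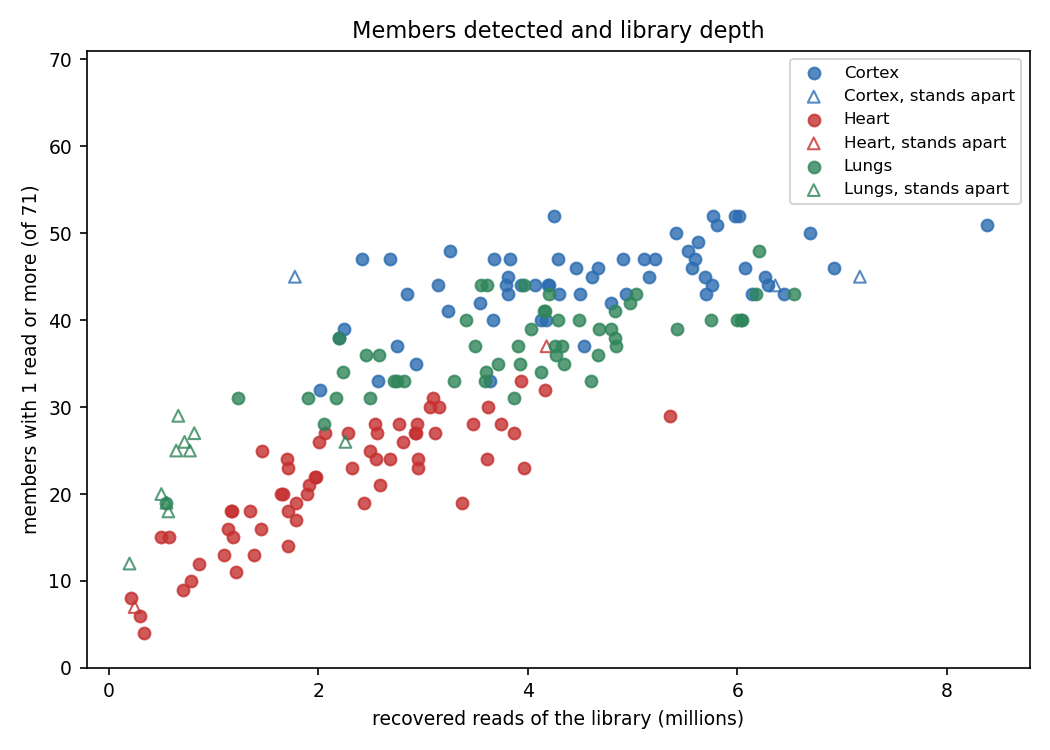
Number of members with at least 1 read in each library plotted against the recovered reads of the library, by tissue, with libraries that stand apart as open triangles. The count climbs with depth in each tissue, and the ranges of cortex (32 to 52 members, median 45) and heart (4 to 37, median 23) overlap.

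The summed level was highest in cortex and lowest in heart. All members together took a median of 163 RPM in cortex (85.6 to 313), 35.0 in heart (14.8 to 95.5) and 89.7 in lungs (46.5 to 222). Without the libraries that stand apart the medians were 163, 34.8 and 86.8 RPM (85.6 to 277, 14.8 to 51.9 and 57.5 to 125), and the highest heart value of all, 95.5, was that of FP38. Within a mouse, the cortex level was above the heart level in 63 of 63 mice (median ratio 4.36) and above the lungs level in 61 of 62 (1.72, the exception being FP33), and the lungs level was above the heart level in 62 of 63 (2.70, the exception being FP38). These orders held in 58 of 58, 51 of 51 and 53 of 53 mice without the libraries that stand apart. These are descriptions, with no test. The medians over all libraries are 0.0163%, 0.0035% and 0.00897% of the reads. For scale, the imprinted 12qF1 miRNA cluster took a median of 16.5% of the reads in cortex, 0.255% in heart and 0.218% in lungs. In whole tissue, fewer cells of a type and less RNA per cell cannot be told apart. The highest cortex library was FP24, at 313 RPM, while FP96 and FP85 had 105 and 103. The 6 most read members held 56.3% of the members' reads in cortex, 57.6% in heart and 58.1% in lungs, so a few members carried the level in each tissue.

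The make-up by family was alike in the 3 tissues for miR-467 and miR-669. miR-467 held 41.6% of the members' reads in cortex, 35.4% in heart and 42.1% in lungs, and miR-669 held 35.4%, 32.9% and 35.9%. miR-466 held 19.5%, 30.1% and 19.1%, and miR-297 held 3.53%, 1.6% and 2.92%. The larger heart share of miR-466 came with miR-466i-5p, which is described apart below.

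In cortex the most abundant members were miR-467a-5p at 20.0 ± 5.82 scaled reads (SD, n = 63, from 8.49 to 35.3), miR-669c-5p at 18.8 ± 4.37 (8.28 to 30.6), miR-467d-5p at 17.6 ± 4.88 and miR-669a-3p at 17.5 ± 6.52 (3.17 to 36.9). Their ranges over libraries overlapped. miR-467e-5p and miR-669a-5p followed at 9.35 and 8.28. In lungs, with a separately scaled table, miR-669a-3p averaged 11.3, miR-467d-5p 9.95, miR-467a-5p 9.28, miR-466i-5p 8.08, miR-669a-5p 7.88 and miR-467c-5p 6.59 scaled reads. In heart, miR-466i-5p led at 6.53 ± 6.97 (n = 64, 0.418 to 50.5), ahead of miR-669a-3p at 3.91, miR-467d-5p at 3.65 and miR-467a-5p at 3.02. miR-669a is known in mouse cardiac progenitor cells, where it holds back the muscle factor MyoD.

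On the common RPM scale, 44 members had at least 100 reads over the 3 tissues. For 38 of them the pooled level ran cortex, then lungs, then heart. The median of their cortex level was 5.08 times the heart level and 2.04 times the lungs level. miR-669c-5p had a pooled 18.6 RPM in cortex (5.19 to 36.0 by library), 2.37 in heart (0 to 5.59) and 4.89 in lungs (0 to 21.8), so the cortex and lungs ranges overlapped. miR-467a-5p had 20.6 in cortex, 3.15 in heart and 9.54 in lungs. No member had its lowest cortex library above its highest heart or lungs library. Without the libraries that stand apart, 37 members ran cortex, lungs, heart, the ratios were 5.34 and 2.08, and miR-669c-5p had its lowest cortex library above its highest heart library. Exceptions in order were miR-466f, miR-466h-5p, miR-467c-5p and miR-669m-5p, which were highest in lungs, miR-466q, which ran cortex, heart, lungs, and miR-466i-5p, which was highest in heart. Of these, miR-467c-5p was the most read, with 5.18 RPM in cortex, 1.82 in heart and 6.19 in lungs.

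**Figure D3:**
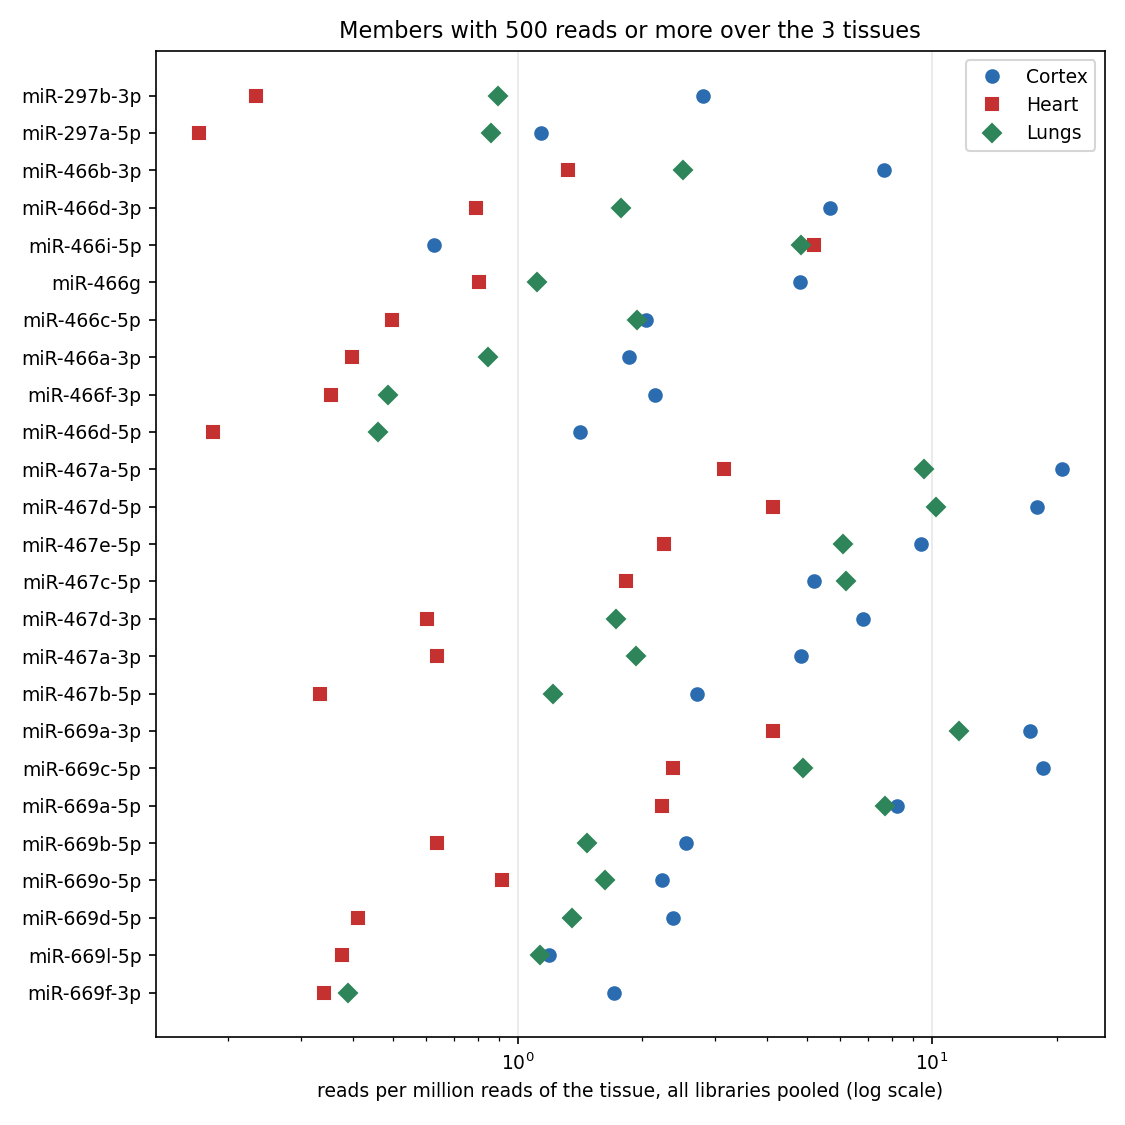
Pooled level in RPM (log axis) of the 25 members with at least 500 reads over the 3 tissues, by tissue, summed over the libraries of a tissue. For most members the cortex point lies highest and the heart point lowest, and miR-466i-5p runs the other way, at 0.629 in cortex, 5.20 in heart and 4.82 in lungs.

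Of 17 hairpin names with at least 50 reads in each tissue, 13 kept their strand use within 10 percentage points over the 3 tissues. A name can cover several hairpins, 12 for miR-669a and 8 each for miR-467a and miR-466b. The 5p strand held 80.9% of the reads of both miR-467a strands in cortex, 83.1% in heart and 83.2% in lungs, and nearly all reads of miR-669c (99.8%, 98.5% and 99.7%). For miR-669a the 3p strand was the larger, with 32.3%, 35.1% and 39.9% of reads on the 5p strand, and for miR-466b likewise (7.47%, 8.78% and 15.3%). The other 4 moved more. miR-467d had 72.4% on the 5p strand in cortex, 87.3% in heart and 85.5% in lungs, miR-669f 29.9%, 33.3% and 49.1%, and miR-466h 57.6%, 79.0% and 78.6%. Among the 17, miR-466i differed most, at 37.8% in cortex, 96.8% in heart and 95.3% in lungs.

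miR-466i-5p stood apart from the other members, and its hairpin is 1 of those outside Sfmbt2. It took 0.385% of the members' reads in cortex, 14.1% in heart and 5.45% in lungs, and 0.336%, 14.8% and 4.78% without the libraries that stand apart. Its highest values stood on 7 to 68 reads, where a heart library held a median of 10.5 and at most 39 reads of it. In lungs it had 95.17 scaled reads in FP33 (68 of 549601 reads) and 91.21 in FP30 (22 of 196853 reads), against a median of 4.66 in that tissue. In heart it had 50.46 in FP92 (15 of 245799 reads), 21.75 in FP24 (7 reads) and 19.74 in FP87 (39 reads), against a median of 4.90. In the 10 lungs libraries that stand apart its median was 12.1, against 3.96 in the other 53. FP30 had no read of miR-467a-5p or of miR-669a-3p, and a count of 0 there allows a value of up to 12.4. With HNLD at 6h in lungs it was called higher than in sham by edgeR (2.37 on the log2 scale, adjusted p = 0.0454) and DESeq2 (2.65, adjusted p = 0.00878) but not by limma (1.45, adjusted p = 0.171), and FP33 and FP38, which stand apart, are 2 of the 4 HNLD libraries there. The HNLD values were 95.17 in FP33, 17.44 in FP38, 6.11 in FP45 and 4.42 in FP49. The shares of all miRNAs called there by edgeR and DESeq2 are not given here. FP33 and FP38 also helped miR-466i-5p past the minimum for testing that is given below, so these p-values are not independent of that minimum. With both left out, along with the others that stand apart, the difference was 0.07 (limma with a minimum of 1 scaled read, adjusted p = 0.989). The part of depth in these values was not tested.

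Few members were abundant enough to test. With a minimum of 10 scaled reads in at least 4 libraries, 8 of 482 tested miRNAs in cortex, 1 of 320 in heart and 7 of 371 in lungs were members, and 63, 70 and 64 members did not pass. In each tissue limma was fitted to log2(scaled reads + 1) over the 16 groups, and p-values were adjusted over all tested miRNAs by Benjamini-Hochberg, with calls at an adjusted p under 0.05. A fold change on this scale understates the change of low members. Mice are the replicates, so p-values measure the spread between these animals.

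In cortex no member was called in any comparison with sham. The counts were 0 of 8 by dose (1.04% of all tested miRNAs were called), 0 by time (0.0%), 0 by dose and time together (0.0%), 0 for fentanyl over all times (1.66%), 0 at 0h, 6h and 24h (0.0% each) and 0 at 7d (2.49%, or 2.28% counting only miRNAs called lower). No single dose at a single time called a member either, with HNLD at 7d, for example, at 0 of 8 (2.28%). edgeR and DESeq2 on the recovered reads also called 0 members. At an unadjusted p under 0.05 limma found 1 member by dose, 1 at 0h, 1 at 7d, 1 with LD10 at 0h and 1 with LD50 at 6h, and 0 in the other cortex comparisons with sham. miR-467a-5p averaged 21.2 ± 6.45 scaled reads in the 12 fentanyl cortices and 19.3 ± 2.88 in the 4 sham libraries at 0h (SD). It averaged 17.5 ± 5.79 with fentanyl and 14.5 ± 3.35 in sham at 6h, 21.7 ± 6.71 with fentanyl and 23.6 ± 1.01 in sham (n = 3) at 24h, and 21.2 ± 5.34 with fentanyl and 19.3 ± 5.73 in sham at 7d. Without the libraries that stand apart, the sham means were 20.5 ± 2.00 at 0h and 13.4 ± 3.07 at 6h (n = 3 each), and the fentanyl mean at 7d was 20.3 ± 4.54 (n = 11). At every time the fentanyl values spread over the sham mean.

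miR-669a-3p had the smallest unadjusted p for dose in cortex (0.0296, adjusted p = 0.466 with limma). At 7d its values were 36.92, 17.50, 13.61 and 14.49 scaled reads with HNLD, 22.01, 16.77, 23.93 and 10.57 with LD10, and 10.50, 18.29, 23.07 and 15.71 with LD50, against 13.77, 16.31, 3.17 and 16.33 in sham. The highest of these is FP24, which stands apart, and the lowest is a single sham library. The difference at 7d was 0.67 on the log2 scale (SE 0.32, limma adjusted p = 0.999), or 0.57 (SE 0.30, adjusted p = 0.988) once libraries that stand apart were left out, and fentanyl and sham values overlapped. At 0h miR-467d-5p differed by -0.43 (SE 0.21, limma adjusted p = 0.110), or -0.30 (SE 0.20, adjusted p = 0.984) without them. At 6h, also without them, miR-467d-5p differed by 0.53 (SE 0.20, unadjusted p = 0.00921, limma adjusted p = 0.629). With all libraries its unadjusted p at 6h was not under 0.05 with limma. Over the 8 members the median log2 difference between fentanyl and sham was -0.00 at 0h, 0.08 at 6h, -0.12 at 24h and 0.17 at 7d, beside 0.19, 0.23, -0.02 and -0.03 over all tested miRNAs. Without the libraries that stand apart the medians were 0.02, 0.02, -0.12 and 0.16 over the members, beside -0.04, 0.01, -0.02 and 0.02 over all 478 tested.

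The 3 cortex libraries that stand apart lay high in some members and low in others. miR-467d-5p had 29.72 scaled reads in FP96, 26.07 in FP85 and 33.08 in FP24, against a tissue mean of 17.6, and miR-669a-3p had 23.87, 25.01 and 36.92, against 17.5. miR-467d-3p, from the other strand of the same hairpin, had 3.30, 3.19 and 3.84, against a mean of 6.83. miR-467a-5p in FP96 and FP85 (15.75 and 17.82) lay within 1 SD of its mean. Without the 3 libraries the count of members called stayed at 0 in the cortex comparisons.

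In heart miR-466i-5p alone was tested, and it was not called in any comparison. The difference between fentanyl and sham was -0.39 at 0h, -0.13 at 6h, 0.03 at 24h and 0.35 at 7d on the log2 scale (SE 0.55 each, limma adjusted p = 0.975, 0.973, 0.992 and 0.998), with 0.0% of 320 tested miRNAs called at each time. No time passed an unadjusted p of 0.05, and edgeR and DESeq2 also called 0. At 24h it averaged 6.66 ± 3.18 scaled reads in 12 fentanyl hearts and 14.6 ± 23.9 in 4 sham hearts (SD), where FP92 held 50.46 and the other sham hearts 3.91 or less. Without FP92 the sham mean was 2.66 ± 1.17 (n = 3), and the difference was 0.998 (SE 0.54, unadjusted p = 0.0716, limma adjusted p = 0.929). Among these 3 is FP91, which is sham by its label while its column name carries LD10. With an SE of 0.55, only large changes could have been detected in this tissue. The HNLD 6h comparison, where 7.19% of miRNAs were called, did not call it either. That group holds FP38, and without the libraries that stand apart 0 of 316 miRNAs were called there and miR-466i-5p differed by 0.12 (limma adjusted p = 0.954).

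In lungs 2 members were lower at 24h with fentanyl than in sham, and none was called in the comparison of fentanyl with sham at 0h, 6h or 7d. Beside the 2 of 7 at 24h, 46.1% of all tested miRNAs were called in either direction and 19.4% were called lower. The counts were 0 at 0h (13.7%), 0 at 6h (0.0%), 0 at 7d (0.0%) and 0 over all times (33.7%), and at an unadjusted p under 0.05 limma also found 0 in each of these 4. Over all times edgeR and DESeq2 each called 1, miR-669c-5p (-0.43 and -0.53 on the log2 scale, adjusted p = 0.0321 and 0.00639). The percentages above are those of limma, and the shares of all miRNAs called by edgeR and DESeq2 are not given here. The comparison over all times includes the sham 24h lungs, which helped miR-669c-5p past the filter, so these p-values are not independent of it. A count of 2 of 7 lies near the background of that time point.

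miR-669c-5p at 24h had 1.42, 3.56, 1.82 and 5.41 scaled reads with HNLD, 3.57, 7.83, 4.92 and 5.95 with LD10, and 5.29, 6.22, 3.03 and 6.24 with LD50, against 11.92, 11.97, 18.77 and 10.90 in sham. All 12 fentanyl lungs lay below all 4 sham lungs, as 15.1% of all tested miRNAs did. The sham values stand on 9 to 14 reads each. The difference was -1.42 on the log2 scale (SE 0.33, limma adjusted p = 0.000481). By dose it was -1.91 with HNLD (adjusted p = 0.000216), -1.14 with LD10 (0.0248) and -1.22 with LD50 (0.0164). At the other times it was 0.38 at 0h, -0.08 at 6h and 0.10 at 7d.

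miR-467c-5p at 24h had 2.14, 6.53, 3.64 and 8.83 scaled reads with HNLD, 4.59, 5.59, 4.51 and 9.12 with LD10, and 7.62, 4.33, 3.79 and 9.61 with LD50, against 14.56, 11.97, 9.38 and 16.96 in sham. Only the highest LD50 lung lay above the lowest sham lung, which stands on 7 reads. The difference was -1.11 (SE 0.34, limma adjusted p = 0.00618), with -1.28 for HNLD (0.0113), -1.05 for LD10 (0.0462) and -1.003 for LD50 (0.0502). It was 0.50, 0.48 and 0.48 at 0h, 6h and 7d, and was not called there. In the single-dose comparisons 36.7% of all tested miRNAs were called with HNLD at 24h, 31.5% with LD10 and 36.9% with LD50.

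**Figure D4:**
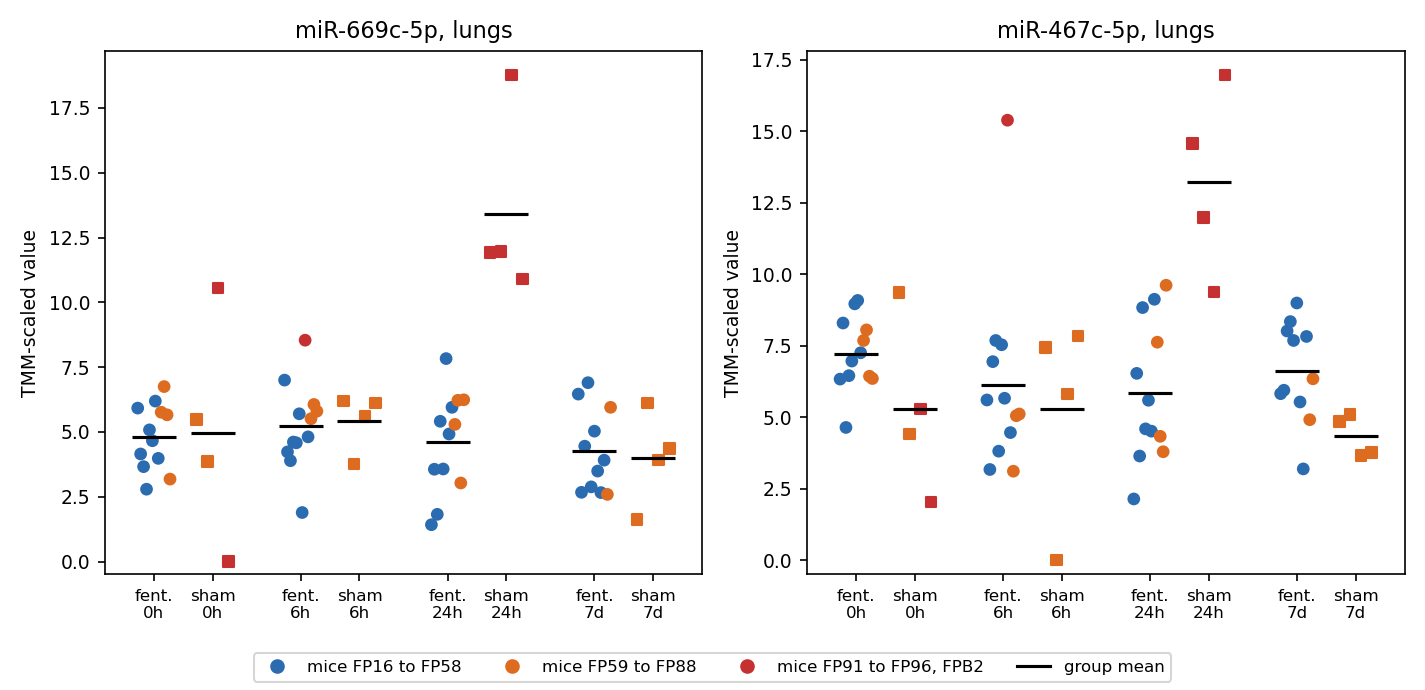
Scaled reads of miR-669c-5p and miR-467c-5p in each lungs library at 0h, 6h, 24h and 7d, fentanyl left of sham, coloured by mouse set, with the group mean as a line. At 24h the 4 sham values of miR-669c-5p, 10.90 to 18.77, lie above the 12 fentanyl values, and all 4 come from the set of mice FP91 to FP96 and FPB2.

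Both calls rest on the sham 24h libraries. miR-669c-5p reached 10 scaled reads in 5 lungs libraries and miR-467c-5p in 4, all of them among the 10 that stand apart, so both members passed the filter only through libraries of that kind and their p-values at 24h are not independent of it. With terms for the mouse sets the difference was -1.29 for miR-669c-5p (limma adjusted p = 0.879) and -0.91 for miR-467c-5p (0.934). At 24h all sham lungs and no fentanyl lungs come from 1 set, so the term for that set rests on its lungs at other times. The loss of the calls in this fit therefore does not tell fentanyl and mouse set apart. Among the other lungs of the same mouse set, FP95 had 10.56 of miR-669c-5p and 5.28 of miR-467c-5p, FP96 had 0 and 2.03, and FPB2, which received LD10, had 8.54 and 15.38. A count of 0 in FP96 allows a value of up to 6.10. Without the libraries that stand apart or those of low depth, no sham lung remains at 24h.

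Some other miRNAs moved with the same libraries. The sum of 8 lung epithelial miRNAs was 15154 to 19061 scaled reads in fentanyl lungs and 19463 to 25452 in sham lungs at 24h, all 8 above 0. The sum of 4 leukocyte miRNAs was 5558 to 13133 with fentanyl and 11093 to 17091 in sham, and that of 3 red blood cell miRNAs was 32065 to 62366 with fentanyl and 21715 to 28320 in sham. For the smooth muscle, cardiac muscle and neuronal sums the sham range at 24h lay inside the fentanyl range. All members together took 57.5 to 123 RPM with fentanyl (median 93.7) and 140 to 157 in sham (median 147). The part of these differences in the 2 calls was not tested.

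A lower minimum of 1 scaled read, chosen after seeing the data, let 33 members into the lungs test. At 24h 8 of them were called lower with fentanyl, where 14.3% of 712 tested miRNAs were called lower and 29.1% either way. They were miR-669c-5p, miR-467c-5p, miR-466b-3p, miR-466g, miR-466f, miR-297c-5p, miR-466h-5p and miR-669e-3p. The sham 24h lungs are all of low depth, so a member could pass this minimum through them on few reads. The p-value at 24h of such a member is not independent of the filter. miR-669e-3p, for example, held 31 reads over all lungs libraries. edgeR at the same minimum called 2 at 24h, and its share over all tested miRNAs is not given here. In cortex the same minimum let 35 members in and limma called 0. edgeR called 1, miR-297a-5p with LD50 at 6h, at -2.08 on the log2 scale (adjusted p = 0.0452), where 6.45% of 806 miRNAs were called. Its 6h values were all under 2 scaled reads.

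By dose, 1 of 7 lung members was called, miR-467d-5p (limma adjusted p = 0.0451), where 34.5% of all tested miRNAs were called. It averaged 10.8 ± 1.82 scaled reads in sham, 9.47 ± 3.48 with HNLD, 8.16 ± 2.14 with LD10 and 11.5 ± 3.19 with LD50 (SD). The order did not follow the dose, and the lowest mean was that of LD10. By mouse set the means were 9.07 in FP16 to FP58, 11.4 in FP59 to FP88 and 9.45 in the rest, and with terms for these sets the adjusted p for dose was 0.641. It was 0.188 without the libraries that stand apart. No member was called by time (1.35%) or by dose and time together (9.43%), where miR-669c-5p had an adjusted p of 0.118 and miR-467c-5p of 0.212 with limma. At an unadjusted p under 0.05 limma found 1 member by time and these 2 by dose and time, and DESeq2 called miR-669c-5p by dose and time (adjusted p = 0.0251). The share of all miRNAs that DESeq2 called by dose and time is not given here.

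Within a mouse set, no member was called. LD50 against sham within FP59 to FP88 called 0 of 6 members in cortex (0.0%) and 0 of 3 in lungs (1.78%), and LD10 against HNLD within FP16 to FP58 called 0 of 8 in cortex (0.0%) and 0 of 5 in lungs (0.0%). limma was used, these comparisons also had 0 members at an unadjusted p under 0.05 in either tissue, and edgeR called 0. These comparisons cover 0h, 6h and 7d for LD50 and sham, since the sham 24h mice lie in the other set. The minimum of 10 scaled reads was applied anew within each set. In lungs miR-669c-5p and miR-467c-5p reached it only in the set of FP91 to FP96 and FPB2, so neither was tested in these lung comparisons.

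The tested members varied together in cortex. Over 63 cortex libraries, 20 of 28 pairs were positively correlated at an adjusted p under 0.05 by permutation (18 by Spearman's rho), with a median Pearson r of 0.32 (-0.14 to 0.57), beside 0.05 over all 115921 pairs of tested miRNAs. The median was 0.39 after subtracting group means and 0.36 without the libraries that stand apart. Within mice FP16 to FP58 it was 0.41 (15 pairs called, 33 libraries) and within FP59 to FP88 0.37 (4 pairs called, 24 libraries). Libraries share depth and scaling, and near-identical members may share reads, and neither was tested.

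miR-467a-5p (8 hairpins) and miR-467d-5p (1 hairpin), both 5p strands, had r = 0.57 and rho = 0.56 in cortex (permutation, adjusted p = 7e-05), and r = 0.54 without the 2 libraries farthest from the median. Within the mouse sets r was 0.61 and 0.64. Both strands of miR-669a had r = 0.53 and rho = 0.56 (permutation, adjusted p = 7e-05), 0.60 without the 2 farthest libraries, and 0.63 and 0.47 within the sets. Both strands of miR-467d did not follow each other, with r = -0.14 and rho = -0.11 (permutation, adjusted p = 0.285). Their r was -0.08 without the 2 farthest libraries, 0.01 without those that stand apart, -0.02 after subtracting group means, and -0.11 and -0.12 within the sets.

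In lungs the members did not vary as a group. There 7 of 21 pairs were called by Pearson's r, 4 of them positive, and 3 by Spearman's rho, with a median r of 0.10 beside 0.01 over all 68635 pairs. miR-467c-5p and miR-669c-5p had r = 0.55 and rho = 0.53 (permutation, adjusted p = 0.00035), 0.61 without the 2 farthest libraries, 0.38 without those that stand apart (adjusted p = 0.0363), and 0.50 and 0.36 within the mouse sets. miR-467a-5p and miR-669a-3p had r = 0.62 but rho = 0.30 (permutation, adjusted p = 0.000735 and 0.0760). Their r was 0.26 without the 2 farthest libraries, and 0.81 within FP16 to FP58 against 0.01 within FP59 to FP88, so that relation rests on a few libraries.

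miR-466i-5p ran against miR-467a-5p, miR-669a-3p and miR-467d-5p in lungs, while its r with miR-467c-5p, miR-669a-5p and miR-669c-5p was 0.12, 0.03 and 0.02, not called. It had r = -0.64 and rho = -0.39 with miR-467a-5p (permutation, adjusted p = 0.00021 and 0.0104), and r was -0.44 without the 2 farthest libraries. With miR-669a-3p it had r = -0.58 and rho = -0.45 (permutation, adjusted p = 0.00035 and 0.00283), -0.34 without the 2 farthest, -0.43 without the libraries that stand apart (adjusted p = 0.0147), and -0.67 and -0.40 within the mouse sets. With miR-467d-5p it had r = -0.35 and rho = -0.23 (permutation, adjusted p = 0.0189 and 0.194), and r was -0.17 without the 2 farthest. By Pearson's r the pairs with miR-467a-5p and miR-669a-3p were both called without the libraries that stand apart, and neither was called within FP59 to FP88.

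**Figure D5:**
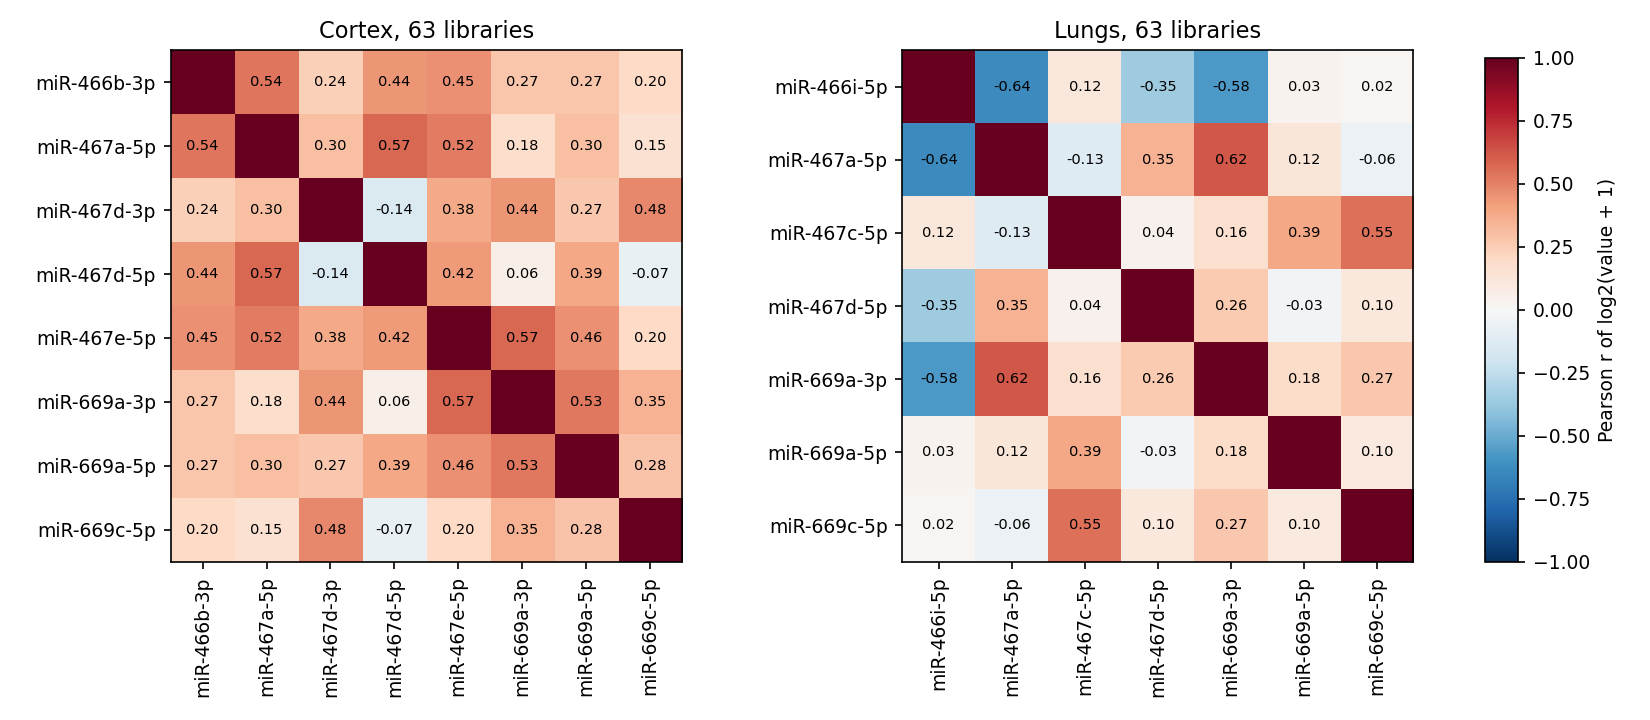
Pearson correlation of log2(scaled reads + 1) between the tested members over the libraries of cortex (8 members) and lungs (7 members), on a colour scale that runs through 0. Most cortex pairs are positive, up to 0.57, while in lungs miR-466i-5p is negative with miR-467a-5p (-0.64) and miR-669a-3p (-0.58).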

How the data were processed

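The authors extracted total RNA, prepared TruSeq small RNA libraries and sequenced them on a NextSeq 500. They trimmed adapters, mapped reads to mature miRBase version 21 sequences (mm9) and scaled them by TMM in edgeR. As a check they also mapped the reads to the mm9 genome. The aligner they name is Bowtie 1.0.0, with 1 pair of mismatches allowed. They deposited 1 table per tissue of the TMM-scaled signal. Low values came out as whole reads (tolerance 0.1 read), from which read numbers were rebuilt. Reads are not independent molecules, and floors (3 reads) cover counting error only. Groups came from the labels. The heart column of mouse FP91 carries LD10 in its name while its label is sham 24h, and the label was followed. Columns left out numbered 0. limma 3.58.1 was the test (pseudocount 1), with edgeR 4.0.16 and DESeq2 1.42.0 on reads as alternatives (R 4.3.3), checked on simulated data. Correlations used 100000 permutations. Named members were the 6 highest by mean in each tissue, called members, those with the smallest p for dose in tissues without calls, and both strands of tested hairpins. Markers were summed per list. Members and lists were chosen with earlier results of these data known. Hairpins came from GENCODE (NCBIM37) and sequences from RefSeq.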

Additional observations from a re-analysis of the deposited data

Results flagged for a closer look

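In 26 groups of 4 libraries, 7.72% of those looked at, 1 library lay far from the others by Dixon's test. Chance does this in about 1 of 20 groups. None was tested further.

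Of the 46 groups looked at for the summed level, 5 were of this kind. They were cortex LD50 0h FP74 at 85.6 RPM, below the others, heart LD50 24h FP63 at 22.3, also below, heart HNLD 6h FP38 at 95.5, heart LD50 7d FP43 at 47.4 and lungs HNLD 0h FP30 at 193, all above.

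The rest were scaled reads of single members. In cortex, miR-669a-3p was high in FP24 (HNLD 7d, 36.92), FP22 (LD10 6h, 31.73), FP63 (LD50 24h, 28.27) and FP96 (sham 0h, 23.87), miR-467a-5p in FP68 (LD50 6h, 24.54) and FP82 (sham 7d, 27.88), and miR-467d-5p in FP85 (sham 6h, 26.07). Of these 7, the values of FP24, FP96 and FP85 come from libraries that stand apart.

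In heart, miR-466i-5p was high in FP92 (sham 24h, 50.46) and FP87 (sham 0h, 19.74), miR-467a-5p in FP38 (HNLD 6h, 9.89), miR-467d-5p in FP96 (sham 0h, 4.74), and miR-669a-3p in FP32 (HNLD 0h, 5.25) and FPB2 (LD10 6h, 6.77). miR-669a-3p was low in FP23 (LD10 24h, 2.74) and was at 0 in FP68 (LD50 6h). FP92 and FP38 stand apart, and FP38 goes against its heart label, with 17105.2 scaled reads of the lung epithelial miRNAs, against at most 983.65 in heart libraries that do not stand apart.

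In lungs, miR-466i-5p was high in FP33 (HNLD 6h, 95.17) and FP30 (HNLD 0h, 91.21), miR-669c-5p in FP93 (sham 24h, 18.77) and miR-669a-5p in FP83 (sham 7d, 7.85). miR-467a-5p was low in FP82 (sham 7d, 6.62) and miR-467d-5p in FP68 (LD50 6h, 7.91). FP33, FP30 and FP93 stand apart.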

How the results depend on the processing

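For the 41 summary results, 335 values under alternatives stayed the same and 42 did not. These results are counts of calls or pairs, numbers detected and summed levels, so they carry no direction. A count of 0 that stayed 0 is among those that stayed the same. Counts of calls in this section are given without the shares over all tested miRNAs. Alternatives with a minimum of 1 scaled read and the correlations within mouse sets were chosen after seeing the data, and for the values listed the cause was not tested beyond what the setting itself changes. In lungs, 1 member was called by dose, 2 with DESeq2, and 0 with edgeR, no filter, a minimum of 1 (limma or edgeR), without low-depth libraries, without libraries that stand apart, or with terms for the mouse sets. By dose and time together 0 were called, and 1 with DESeq2 or a pseudocount of 4. Over all times 0 were called, and 1 with edgeR, DESeq2, or a minimum of 1 (limma, edgeR, or without libraries that stand apart). At 24h 2 were called, 8 with no filter or a minimum of 1, and 0 with mouse set terms, which cannot tell fentanyl and mouse set apart at 24h. In any single dose and time 2 were called, 4 with DESeq2, 8 with no filter, 9 with a minimum of 1, and 0 with mouse set terms. Without libraries of low depth or those that stand apart (also at a minimum of 1) the count was 0. No sham lung then remains at 24h, so these settings hold no comparison with sham at 24h and could not call the 2 members there. Lung results by dose, by dose and time together, and over all times then cover 0h, 6h and 7d only. LD50 against sham within FP59 to FP88 called 0, and 1 with no filter. In heart 0 were called, and 1 with no filter at 24h and in any single dose and time (miR-669c-3p, -0.92 on the log2 scale, adjusted p = 0.00322 with limma, 5 reads in all). In cortex any single dose and time called 0, and 1 with edgeR at a minimum of 1.

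Leaving out each library in turn gave 0 to 1 lung members by dose, 0 to 1 by dose and time, 0 to 1 over all times, 1 to 2 at 24h and 1 to 3 in any single dose and time. The call of miR-467d-5p by dose was lost in 33 of 63 cases (adjusted p 0.00594 to 0.0821). miR-669c-5p at 24h kept its call in all 63 (-1.51 to -1.26). miR-467c-5p kept its call at 24h in the 59 in which it passed the filter. In the remaining cases, a library that had let miR-467c-5p past the filter was left out, and miR-467c-5p was not tested. miR-669c-5p passed the filter through the sham 24h lungs and 1 other lung that stands apart. Leaving out any 1 of them still left enough for it to be tested. Leaving out single libraries therefore cannot show whether either call holds without the libraries that let the member past the filter. With LD10, miR-669c-5p was lost without sham 24h replicate 3 or LD10 24h replicate 1 or 3 (adjusted p up to 0.0884), and with LD50 without sham 24h replicate 3 or LD50 24h replicate 3 (up to 0.0635). miR-467c-5p was lost with LD10 without LD10 24h replicate 1, 2 or 3 (up to 0.116), and with HNLD without HNLD 24h replicate 1 (0.0718). At 24h in lungs RLE scaling moved the median of all miRNAs by -0.15, and in cortex at 24h terms for the mouse sets moved it by -0.33.

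Pairs called were 20 in cortex, and 4 within FP59 to FP88. They were 7 in lungs, 4 without libraries that stand apart, 4 within FP16 to FP58 and 0 within FP59 to FP88, where fewer libraries enter. Members detected per library had medians of 45, 23 and 36 in cortex, heart and lungs, 17, 1 and 9 at 10 reads or more, and 15.3, 5.34 and 10.9 at the lowest total. The median summed value was 161, 33.7 and 88.7 scaled reads, and 105, 4.90 and 55.2 over members past the filter. Cortex has no low-depth library, so that alternative gave no value there. No paired analysis was possible because each mouse belongs to 1 group of dose and time and the labels give no numbers that match mice across groups. Tissues of the same mouse are compared as values in the text.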
